A study of Homo sapiens with 18 samples.

Results

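The mitosis and spindle genes described here are 48 genes of chromosome segregation and cell division, taken as all probes of the array that carry one of 48 given gene symbols. They held 74 of the 47231 probes on the array, and 48 of the 20046 genes that a probe names with a single symbol. The question was how OTX015, a small molecule that blocks the acetyl-lysine pockets of the BET bromodomain proteins, changed their transcripts in a pair of triple-negative breast cancer lines. The lines, MDA-MB-231 with a mesenchymal and MDA-MB-468 with a basal epithelial character, were profiled on 18 Illumina HumanHT-12 v4 arrays, 1 for each line, treatment and time. In each line the 3 groups were untreated cells, cells given DMSO as the vehicle and cells given OTX015, each collected after 4, 8 and 24 h. MDA-MB-231 cells were given 75 nM OTX015, and MDA-MB-468 cells 650 nM, so that the effects of line and dose cannot be told apart. Both are established lines grown in culture without any engineered allele in the labels, and nothing in the labels says that the arrays came from separate cultures. The p-values therefore measure only the spread between these arrays, and that spread may be technical. The times serve as samples, or the control arrays where single times are tested.

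Cells enter mitosis when CDK1 bound to a B-type cyclin becomes active, with the help of CDC25 phosphatases and the Polo-like and Aurora kinases. The checkpoint kinases then hold the cell until kinetochores have caught the spindle, after which CDC20 and the anaphase-promoting complex, an E3 ubiquitin ligase, release the sister chromatids and motor and midzone proteins complete division. Most of these genes are transcribed late in the cell cycle, driven by B-MYB, FOXM1 and the MuvB core and repressed in resting cells by the DREAM complex, so their summed RNA follows the share of dividing cells in a culture. In bulk RNA fewer cells in that phase and less RNA per cell cannot be told apart.

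The promoters of this class are known for a pair of short elements, the cell cycle genes homology region (CHR) that MuvB binds and the CCAAT box. RefSeq promoters, from 250 bases before to 50 bases after a transcript's start, were matched by symbol for 39 of the 48 genes (49 promoters). The letters TTTGAA or TTCGAA of the CHR, on either strand, stood in 71.4% of the members' promoters and in 16.4% of all 35116 promoters of that length. CCAAT on either strand stood in 73.5% against 34.6%, and both together in 57.1% against 6.38%. A match is a description of letters and not of a bound site. The 100 bases before the start are shown for 3 genes with a called probe in MDA-MB-468 (DLGAP5, CENPF and PRC1) and for CCNB1 and CDC20, which were not called there. They are written 5′ to 3′ on the gene's strand (GRCh38.p14: chr14:55191586-55191685, minus; chr1:214603095-214603194, plus; chr15:90994536-90994635, minus; chr5:69167050-69167149, plus; chr1:43358881-43358980, plus), and capitals mark CCAAT (or its complement ATTGG) and the CHR letters, which did not overlap.
DLGAP5: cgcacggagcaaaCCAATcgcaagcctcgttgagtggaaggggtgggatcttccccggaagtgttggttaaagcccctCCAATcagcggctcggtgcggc
CENPF: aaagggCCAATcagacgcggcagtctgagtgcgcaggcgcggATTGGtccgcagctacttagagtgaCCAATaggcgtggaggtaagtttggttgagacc
PRC1: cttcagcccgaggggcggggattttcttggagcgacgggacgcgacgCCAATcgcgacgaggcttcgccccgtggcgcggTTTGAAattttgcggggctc
CCNB1: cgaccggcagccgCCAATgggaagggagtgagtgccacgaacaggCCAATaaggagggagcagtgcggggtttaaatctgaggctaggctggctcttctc
CDC20: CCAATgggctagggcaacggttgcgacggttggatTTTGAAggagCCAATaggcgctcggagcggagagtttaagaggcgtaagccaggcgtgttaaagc
PRC1 and CDC20 held both elements in this stretch, while DLGAP5, CENPF and CCNB1 held CCAAT boxes only. In the whole window, from 250 bases before to 50 bases after the start, DLGAP5 and CENPF held CHR letters too, and CCNB1 held none. Both kinds of letters thus stood in a called and in an uncalled gene. AURKA, FOXM1, RACGAP1 and TPX2, the other genes called in MDA-MB-468 against DMSO, were among those without a matched promoter.

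The intensities were corrected for background, quantile-normalized and log2-transformed, so that a difference of 1 is a 2-fold difference in signal. A probe was tested where its signal exceeded a floor (the 95th percentile of 457 olfactory receptor probes on the same array) on at least 3 of 18 arrays, which kept 23630 probes of 12920 genes. Of the 74 member probes 73 were tested and 69 were above the floor on all 18 arrays. Only the third probe of NUF2, an outer kinetochore subunit, was left out, and every gene kept a tested probe. A probe was called when limma's Benjamini-Hochberg adjusted p over all 23630 probes was at most 0.05 and its log2 difference at least 0.5 in size, which are the study's thresholds. Mean signal per array ran from 316 to 409 for MDA-MB-231 but from 174 to 503 for MDA-MB-468, and the lowest mean of all was that of MDA-MB-468 given OTX015 for 8 h. Identity genes matched the lines, with the mesenchymal genes VIM and ZEB1 high in MDA-MB-231 and CDH1 and KRT5 high in MDA-MB-468, but KRT14, a basal keratin, was above the floor on 0 of 9 arrays of MDA-MB-468 and EPCAM was above it in both lines.

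In MDA-MB-231 the mitotic transcripts moved little with OTX015. Of 73 member probes 0 were called against DMSO by limma, with 0.427% of all probes called in either direction, and 16 member probes had an unadjusted p under 0.05. The median log2 difference over the member probes was -0.07, against 0.00 over all probes. Of the 73 member probes 51 (69.9%) were below zero, against 50.8% of all probes. The largest falls belonged to CDCA8, the borealin subunit of the chromosomal passenger complex that corrects wrong spindle attachments, at -0.38 (SE 0.08, adjusted p = 0.0160), and to MKI67, the Ki-67 proliferation antigen, at -0.29 (SE 0.07, adjusted p = 0.0455). Both passed limma's adjusted p but not the minimum fold change.

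MKI67 illustrates the size of these differences. Its log2 signal in MDA-MB-231 was 8.57, 8.50 and 8.44 in untreated cells at 4, 8 and 24 h, 8.58, 8.54 and 8.30 with DMSO, and 8.37, 8.18 and 8.01 with OTX015. The OTX015 array was the lowest at each time, although the 4 h OTX015 array was above the 24 h DMSO array. AURKA, the centrosomal kinase that builds the spindle poles, read 11.84, 11.74 and 11.63 untreated, 11.74, 11.62 and 11.62 with DMSO, and 11.46, 11.48 and 11.33 with OTX015. Here the groups did not overlap, and the difference from DMSO was -0.23 (95% confidence interval -0.38 to -0.08, adjusted p = 0.104 by limma). CCNB1 (0.04) and CDC20 (0.08) read higher than with DMSO. CDK1 (-0.01), MAD2L1 (-0.03), FOXM1 (-0.12), TOP2A (-0.14) and PLK1 (-0.18) read lower, and none of these genes was called. All 3 OTX015 arrays lay below all 6 arrays without the drug for 7 member probes (9.59%) of 6 genes in this line (AURKA, ESPL1, KIF20A, KIF2C, PRC1 and UBE2C), and the same held for 4.04% of all probes tested.

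In MDA-MB-468 the balance of the mitotic genes was downward. Against DMSO 8 member probes of 7 genes were lower and 0 were higher, with 2.38% of all probes called lower and 2.00% higher. This was 11% of the member probes. The median over member probes was -0.26 against -0.01 over all probes, and 60 of 73 (82.2%) were below zero against 52.6% of all probes. The called genes came from 5 of the 9 roles, namely entry kinases (AURKA), kinetochore (CENPF), spindle microtubule proteins (DLGAP5, PRC1 and TPX2), cytokinesis (RACGAP1) and transcription (FOXM1). DMSO itself gave 0 member calls against untreated cells in either line, against 0.00% of all probes, with unadjusted p under 0.05 for 0 member probes of MDA-MB-231 but 2 of MDA-MB-468 by limma.

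**Figure D1:**
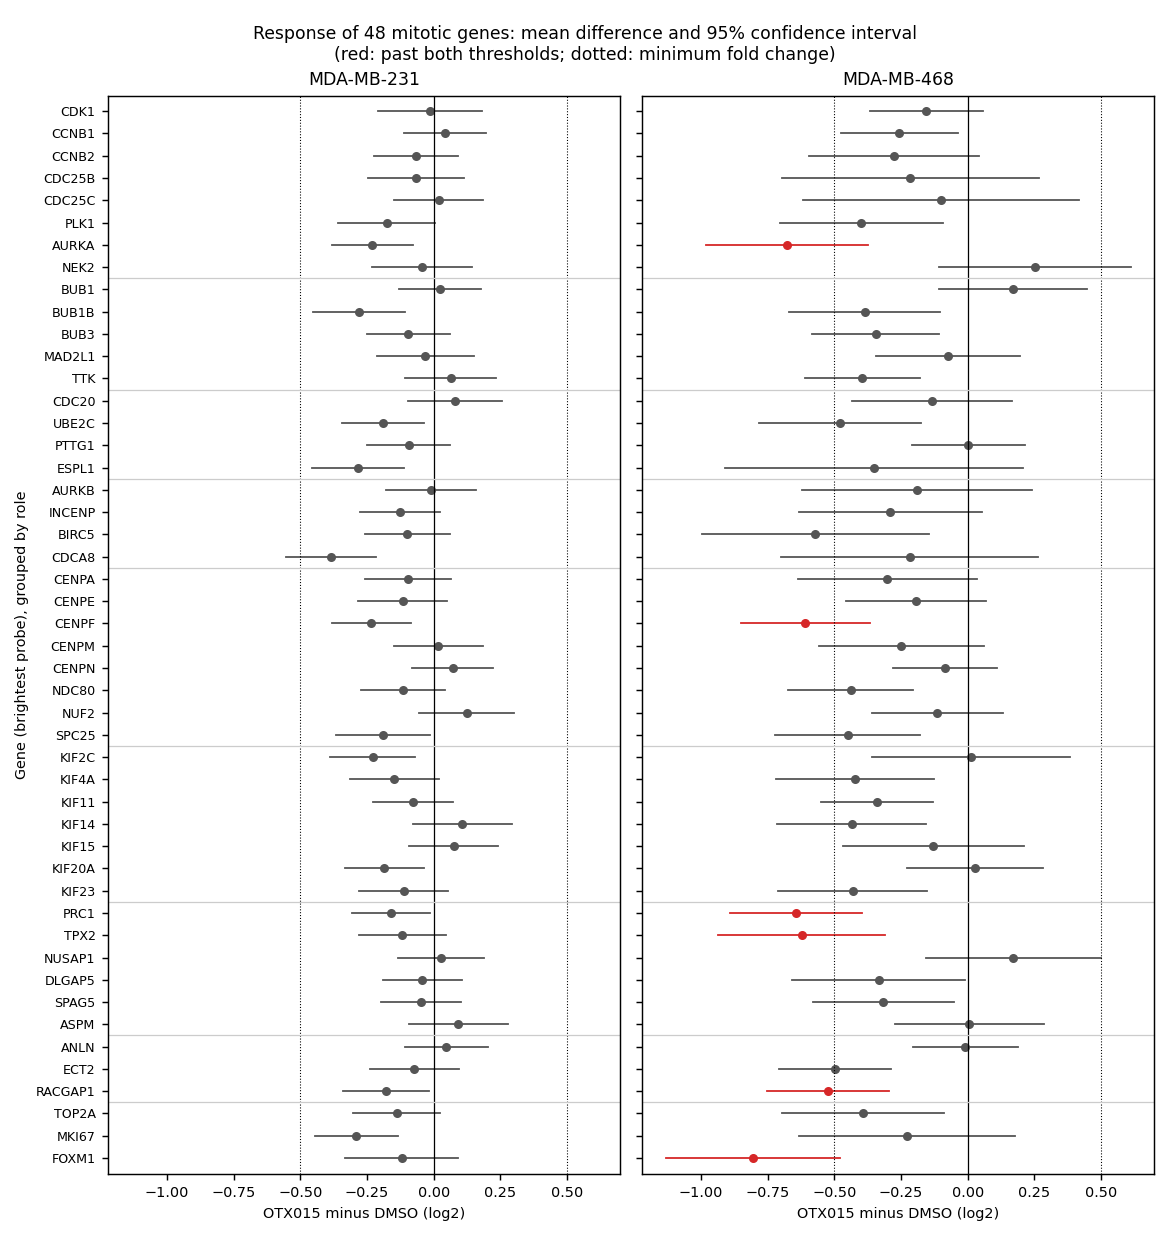
OTX015 minus DMSO on the log2 scale (horizontal axis) for the brightest probe of each of the 48 genes, ordered by role, for MDA-MB-231 (left) and MDA-MB-468 (right). Points are means over 3 times with 95% confidence intervals, red marks probes past both thresholds (0 on the left and 6 on the right), and most points of MDA-MB-468 lie left of zero with wider intervals.

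Among the entry kinases and cyclins, 1 of 8 genes was called in MDA-MB-468. AURKA read 10.95, 10.84 and 10.92 in untreated cells at 4, 8 and 24 h, 11.03, 10.90 and 10.81 with DMSO, and 10.14, 10.54 and 10.02 with OTX015. All OTX015 arrays lay below all others, by the least at 8 h, and the difference from DMSO was -0.68 (95% confidence interval -0.98 to -0.38, adjusted p = 0.0291 by limma). A second AURKA probe gave -0.77 (adjusted p = 0.0121).

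The core of the entry switch was not called. CDK1, the kinase itself, differed from DMSO by -0.15 (95% confidence interval -0.37 to 0.06), CCNB1, its cyclin B1 partner, by -0.26 (-0.48 to -0.04) and PLK1, the Polo-like kinase, by -0.40 (-0.70 to -0.09), with adjusted p of 0.396, 0.172 and 0.131 by limma. For CCNB1 the signals were 8.49, 8.33 and 8.22 untreated, 8.58, 8.25 and 8.07 with DMSO, and 8.38, 7.91 and 7.84 with OTX015. Each OTX015 array was the lowest of its time, but the groups overlapped across times because the level without the drug also declined from 4 to 24 h. NEK2, a centrosome-separating kinase, was the member farthest in the other direction by its brightest probe, at 0.25 (-0.11 to 0.61, adjusted p = 0.416).

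None of the spindle checkpoint and anaphase genes was called in MDA-MB-468 against DMSO. The 5 checkpoint genes ranged from -0.39 to 0.17 by their brightest probes, and the 4 anaphase genes from -0.48 to 0.00. UBE2C, the E2 enzyme that serves the anaphase-promoting complex, had the lowest of the latter, with 11.77 to 12.05 on the 6 arrays without the drug, and 11.55, 11.63 and 11.08 with OTX015. Its groups did not overlap, yet its adjusted p was 0.0803 by limma. CDC20, the activator of that ligase, read 12.27, 11.88 and 11.99 untreated, 12.33, 12.07 and 11.94 with DMSO, and 12.36, 11.55 and 12.04 with OTX015. Only its 8 h OTX015 array was below the other arrays. MAD2L1, which holds CDC20 in check, differed by -0.07 (95% confidence interval -0.34 to 0.20).

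At the kinetochore and centromere 1 of 8 genes was called. CENPF, a large kinetochore protein that also binds microtubules, read 9.80, 9.73 and 9.75 untreated, 9.74, 9.55 and 9.41 with DMSO, and 9.11, 9.07 and 8.70 with OTX015. The groups did not overlap and the difference was -0.61 (95% confidence interval -0.85 to -0.37, adjusted p = 0.0208 by limma). NDC80, the microtubule-binding arm of the kinetochore, passed the adjusted p (0.0485) with -0.44, short of the minimum fold change. The chromosomal passenger genes (AURKB, INCENP, BIRC5 and CDCA8) and the 7 kinesin motors had 0 calls, with BIRC5 (survivin) lowest of the former at -0.57 (adjusted p = 0.122) and KIF14, a midbody kinesin, lowest of the latter at -0.43 (adjusted p = 0.0837).

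The spindle microtubule proteins held 3 called genes of 6. PRC1, which bundles antiparallel microtubules in the midzone, read 11.18, 10.96 and 11.16 untreated, 11.23, 10.80 and 10.90 with DMSO, and 10.63, 10.23 and 10.14 with OTX015. TPX2, which brings AURKA to the spindle, read 10.68, 10.37 and 10.44 untreated, 10.55, 10.22 and 10.14 with DMSO, and 9.67, 9.94 and 9.43 with OTX015. For both genes every OTX015 array lay below every other array, and the differences from DMSO were -0.64 (SE 0.11, adjusted p = 0.0189 by limma) and -0.62 (SE 0.14, adjusted p = 0.0413). DLGAP5, a spindle assembly protein known as HURP, was called by its dimmer probe only, at -0.88 (SE 0.17, adjusted p = 0.0296), while its brighter probe gave -0.33 (adjusted p = 0.220). The dimmer probe read 10.09, 10.01 and 9.45 untreated, 10.24, 9.74 and 9.76 with DMSO, and 9.70, 8.99 and 8.41 with OTX015, with the 4 h OTX015 array inside the range of the others.

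FOXM1, the transcription factor of late cell cycle genes, showed the most marked fall of any brightest probe. It read 8.37, 8.18 and 8.14 in untreated MDA-MB-468 cells, 8.62, 8.13 and 8.03 with DMSO, and 7.73, 7.66 and 6.98 with OTX015. The groups did not overlap, and the difference from DMSO was -0.81 (95% confidence interval -1.13 to -0.48, adjusted p = 0.0225 by limma), or 1.75-fold lower. A second FOXM1 probe gave -0.53 (adjusted p = 0.0778). TOP2A, the topoisomerase that untangles chromosomes, and MKI67 were not called over the 3 times, at -0.39 and -0.23 (adjusted p = 0.133 and 0.522).

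RACGAP1, the centralspindlin subunit that starts cytokinesis, depended on the control. It read 9.31, 8.68 and 8.45 untreated, 9.55, 9.18 and 9.05 with DMSO, and 9.21, 8.56 and 8.44 with OTX015. The OTX015 arrays were close to the untreated ones, so the difference was -0.52 from DMSO (adjusted p = 0.0277 by limma) and -0.07 from untreated cells. ECT2, the exchange factor that RACGAP1 recruits, passed the adjusted p at -0.50 (adjusted p = 0.0249) but fell just short of the minimum fold change.

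**Figure D2:**
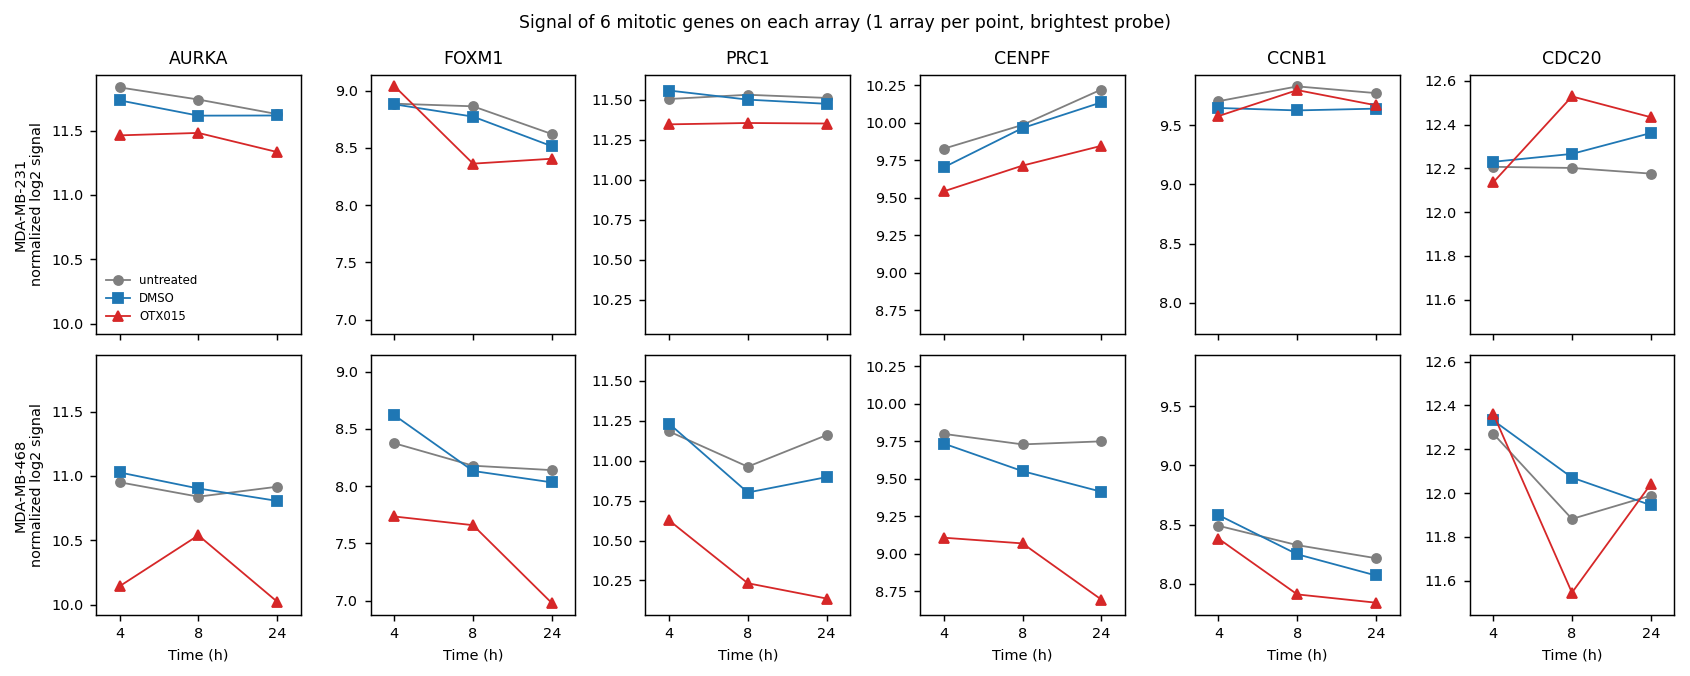
Normalized log2 signal (vertical axis, which does not start at 0 and differs between genes) against time in hours for 6 genes of MDA-MB-231 (top) and MDA-MB-468 (bottom). Each point is 1 array, grey circles are untreated cells, blue squares DMSO and red triangles OTX015, and the red points of AURKA, FOXM1, PRC1 and CENPF lie below all others in MDA-MB-468 while those of CDC20 do so only at 8 h.

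All 3 OTX015 arrays lay below all 6 arrays without the drug for 18 member probes (24.7%) of 16 genes in MDA-MB-468, compared with 7.01% of all probes tested. Besides 6 of the called genes this included BIRC5, BUB1B, CENPA, ECT2, KIF14, NDC80, SPC25, TOP2A, TTK and UBE2C, and RACGAP1 entered by its dimmer probe. In neither line was a member probe above all control arrays on all 3 OTX015 arrays, against 3.57% of all probes for MDA-MB-231 but 5.68% for MDA-MB-468. The calls over the 3 times depended on the arrays and settings used, and none was left without any one of the 3 DMSO arrays, without all 8 h or all 24 h arrays, with median scaling in place of quantile normalization or with the untreated arrays left out. Under median scaling the members' median was -0.52 and that of all probes -0.12.

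Whether the response differed between the lines was tested directly. Only the dimmer AURKA probe passed, 0.53 lower in MDA-MB-468 than in MDA-MB-231 on the log2 scale (log2 difference of the responses -0.53, 95% confidence interval -0.80 to -0.26, adjusted p = 0.0474 by limma), which is 1 of 73 member probes (1.37%) where 1.10% of all probes were called lower. No member was called higher, against 0.800% of all probes. The lower share is near the background. FOXM1 gave -0.68 (-1.10 to -0.27, adjusted p = 0.0921) and CCNB1 -0.30 (-0.54 to -0.06, adjusted p = 0.217), and the median over member probes was -0.20 against -0.01 over all probes. Leaving out 1 array at a time moved the count between 0 and 5.

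At single times OTX015 was set against the average of both control arrays (untreated and DMSO), with the lone OTX015 array assumed to vary like the others. These comparisons share their arrays with those against DMSO and are not independent of them. In MDA-MB-231 the member calls were 0 at 4, 8 and 24 h, against 0.262%, 0.669% and 0.851% of all probes in either direction, and 8, 17 and 11 member probes had an unadjusted p under 0.05 by limma. In MDA-MB-468 the count of lower probes was 19 (26%) at 4 h, 9 (12.3%) at 8 h and 22 (30.1%) at 24 h, against 6.65%, 7.93% and 6.10% of all probes. Higher probes numbered 2, 3 and 0, against 7.92%, 6.33% and 6.04%. The 4 h and 24 h falls covered 16 and 19 of the 48 genes. The members' median log2 differences were -0.23, -0.15 and -0.30 at the 3 times, and those of all probes -0.03, -0.02 and 0.00.

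**Figure D3:**
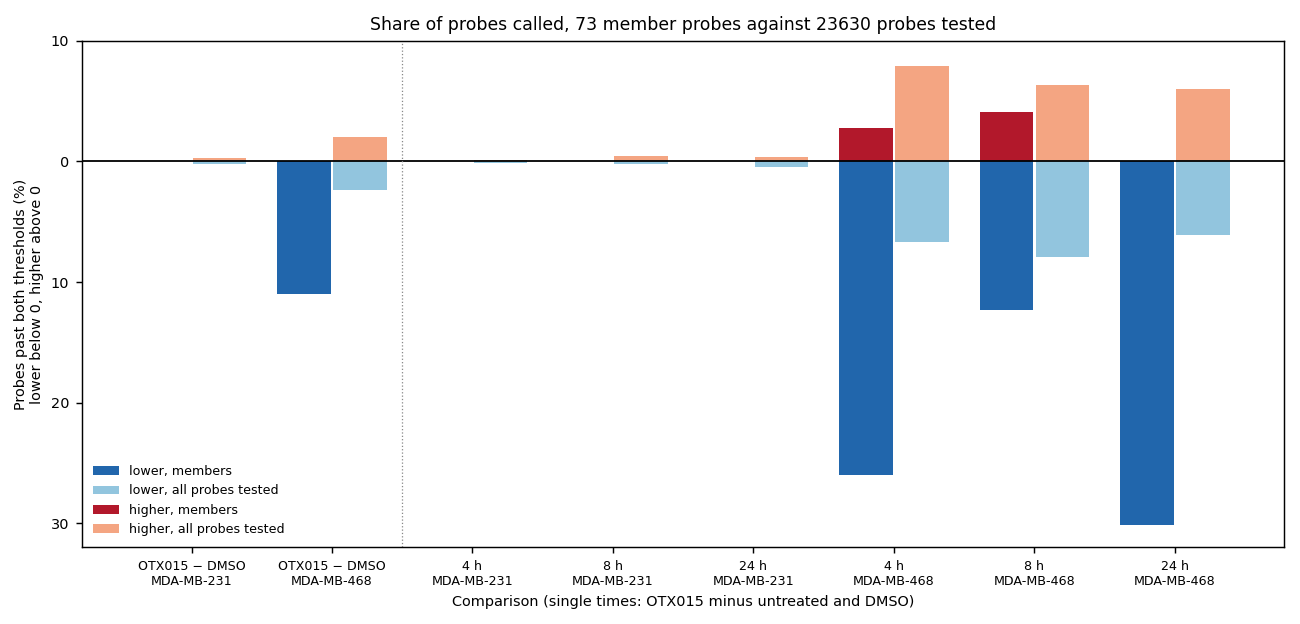
Percentage of probes past both thresholds (vertical axis, lower below zero and higher above it) among the 73 member probes (dark bars) and all 23630 probes tested (light bars), for OTX015 against DMSO and for each time against both controls. In MDA-MB-468 the lower share of the members is 26% at 4 h, 12.3% at 8 h and 30.1% at 24 h, and in MDA-MB-231 it is 0 throughout.

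After 4 h in MDA-MB-468 the lowest members were TPX2 at -0.94 (adjusted p = 0.000111 by limma), a KIF23 probe at -0.91 and both AURKA probes at -0.88 and -0.85. KIF23, the motor subunit of centralspindlin, read 7.54 and 7.44 in untreated and DMSO cells and 6.57 with OTX015 by this probe, and its brighter probe gave -0.56. KIF4A, a chromosome-arm motor, fell by 0.80 from 10.22 and 10.18 without the drug to 9.40 with it. Its level without the drug then dropped to 9.37 and 9.30 at 24 h, where the difference was no longer called. CDC25B, a CDK1-activating phosphatase, read 11.55 and 11.54 without the drug and 10.87 with it at 4 h, and 11.06 and 11.07 against 11.45 at 8 h. The 8 h difference of CDC25B had the opposite sign and was not called.

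The 2 higher probes at 4 h both belonged to CENPM, a subunit of the inner kinetochore. One read 6.62 and 6.70 in untreated and DMSO cells at 4 h and 8.04 with OTX015, against 8.03 to 8.14 without the drug at 8 and 24 h. The rise of 1.39 thus stood against low 4 h controls, with the OTX015 array at the later control level, and the brightest CENPM probe was not called at 4 h. MKI67 was likewise low in the 4 h controls, at 6.75 and 6.94, compared with 7.66 to 7.86 in the later controls. Of all probes 456 were on average at least 1 log2 unit lower in the 4 h controls of MDA-MB-468 than in the later ones, of which 1 was a member probe (CENPM). Most member probes went the other way, with 54 of 73 (74%) higher in the 4 h than in the 24 h controls. The same held for 57.6% of all probes. The part of these shifts in the 4 h results was not tested.

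At 8 h most called mitotic genes were lower, and the share called higher was below that of all probes. DLGAP5 was called by both probes (-0.88 and -0.61), along with PRC1 at -0.65, BIRC5 at -0.63 and CENPF at -0.57. CDC25C, another CDK1-activating phosphatase, read 7.91 and 7.63 without the drug and 7.06 with it, a difference of -0.71 (adjusted p = 0.00221 by limma), while at 4 and 24 h its OTX015 arrays read 7.96 and 7.87. NEK2 was higher by both probes (0.69 and 0.57), and NUSAP1, a microtubule-bundling protein, was higher by its brightest probe only, at 0.56. NUSAP1 read 10.84 and 10.99 without the drug and 11.47 with OTX015. The array behind these 8 h values had a mean signal of 174 and 17123 probes above the floor, the fewest of the 18, and its part in them was not tested.

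At 24 h the falls were broadest. FOXM1 was lower by 1.11 (95% confidence interval -1.35 to -0.86, adjusted p = 1.4e-05 by limma), DLGAP5 by 1.19 at its dimmer probe (-1.50 to -0.88) and BIRC5 by 1.05 (-1.26 to -0.85), or 2.16-fold, 2.28-fold and 2.08-fold. BIRC5, the survivin subunit of the passenger complex, read 9.73 and 9.61 without the drug and 8.62 with OTX015, and it read 9.28, 9.34 and 9.23 at 4 h. Its second probe gave -0.45 at 24 h, short of the minimum fold change. The brighter DLGAP5 probe gave -0.17 (adjusted p = 0.395) at 24 h, so the probes of this gene disagreed.

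The 24 h falls reached all 9 roles. They included AURKA (-0.84) and CCNB2, a B-type cyclin, (-0.62) among the entry genes, BUB1B of the checkpoint (-0.63), UBE2C (-0.84) and ESPL1, the separase that cuts cohesin (-0.92), AURKB, the passenger kinase (-0.72), and KIF14 (-0.64). At the kinetochore CENPF (-0.89), SPC25 (-0.62), NDC80 (-0.60) and CENPM (-0.58) were lower, and PRC1 (-0.89) and TPX2 (-0.86) on the spindle. ECT2 (-0.55), TOP2A (-0.74) and MKI67 (-0.60) completed the list. ESPL1 rested on unequal controls of 8.67 and 7.76 against 7.30 with OTX015, and its difference was -0.47 without the untreated array. CDK1 (-0.09), CDC20 (0.07), MAD2L1 (0.04), PLK1 (-0.25) and CCNB1 (-0.30) were not called at 24 h, with adjusted p from 0.0780 to 0.870 by limma.

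**Figure D4:**
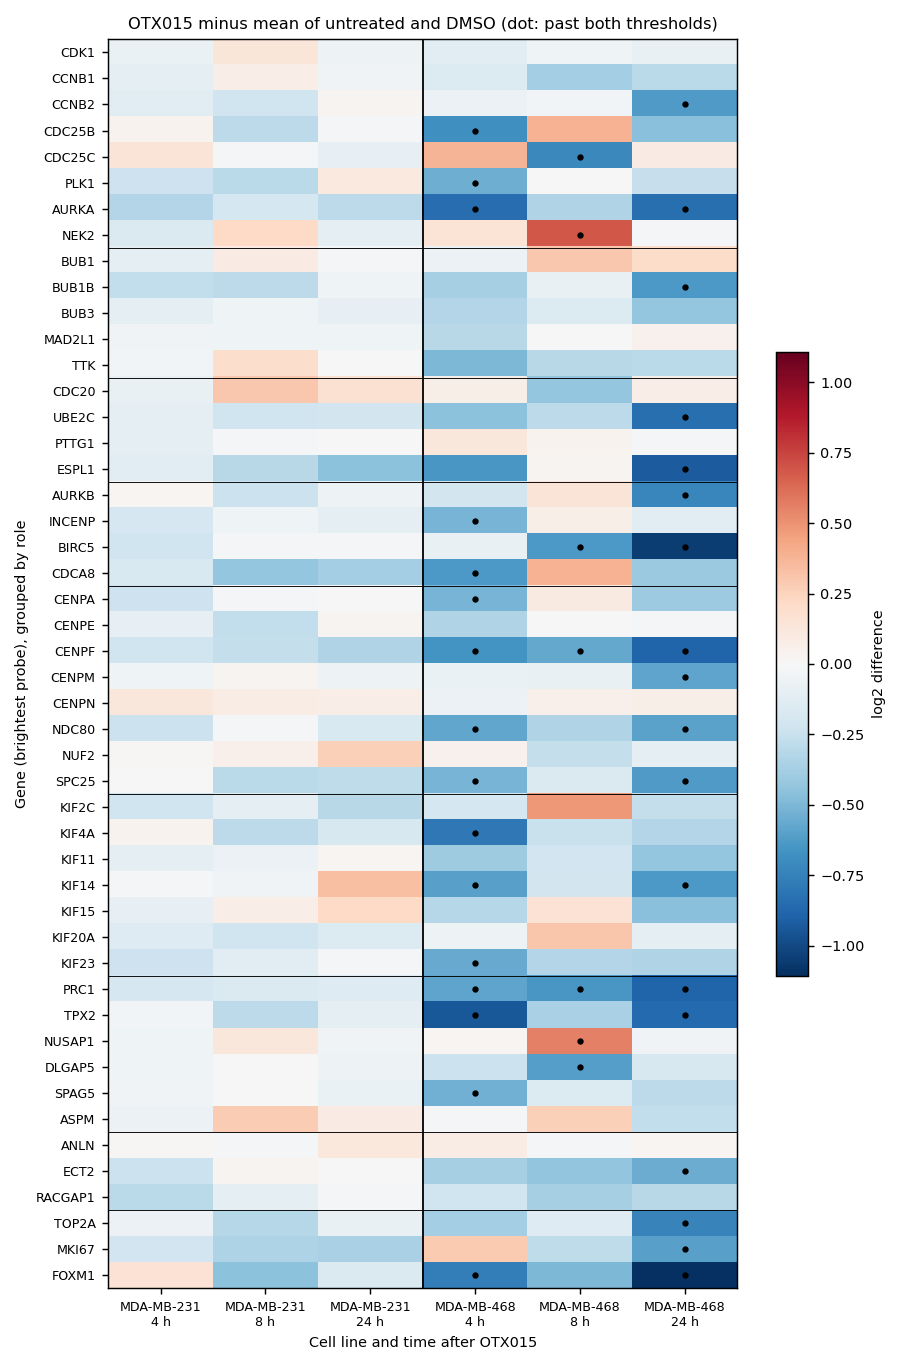
OTX015 minus the mean of untreated and DMSO cells (colour, log2 difference, blue lower and red higher) for the brightest probe of the 48 genes by role (rows) at each time and line (columns). Dots mark probes past both thresholds, of which MDA-MB-231 has 0 and MDA-MB-468 has its most at 24 h, with FOXM1 and BIRC5 the deepest blue.

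The change of the response from 4 to 24 h was tested within each line. In MDA-MB-468 7 member probes of 5 genes were lower at 24 h (9.59%, against 8.12% of all probes) and 1 was higher (1.37%, against 7.58%). The lower share is near the background and the higher share below it. The lower ones were both BIRC5 probes (-0.97 and -0.69), 2 CENPM probes (-1.71 and -1.12), MKI67 (-0.89), DLGAP5 (-0.73) and CCNB2 (-0.56), and the higher one was a KIF23 probe (0.94). For CENPM and MKI67 this difference takes in the low 4 h controls. MDA-MB-231 had 0 member calls by limma (0.00423% of all probes called, 1 member probe with an unadjusted p under 0.05).

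Without the drug some of these genes also differed between 4 and 24 h in MDA-MB-468. Time in culture and a shift of the 4 h control arrays cannot be told apart here. From 4 to 24 h 8 member probes of 8 genes were lower and 3 of 2 genes higher, against 5.09% and 8.15% of all probes. KIF4A fell by 0.86, MAD2L1 by 0.71, RACGAP1 by 0.68, KIF11, the motor that pushes the spindle poles apart, by 0.65 and PLK1 by 0.54, and the higher ones were MKI67 (0.82) and 2 CENPM probes (1.43 and 0.84). In MDA-MB-231 0 member probes were called, against 0.741% of all probes, with 16 at an unadjusted p under 0.05 by limma.

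Without the drug the lines differed in these genes. Of the member probes 23 (31.5%) were lower in MDA-MB-468 than in MDA-MB-231 and 4 (5.48%) higher, against 16.6% and 17.0% of all probes. CCNB1 was lowest relative to MDA-MB-231, at 8.32 ± 0.19 against 9.70 ± 0.08 (SD, n = 6 arrays), a log2 difference of -1.38. AURKB (-1.20), DLGAP5 (-1.06), CDC25C (-1.05), MKI67 (-1.04) and BUB3, a checkpoint adaptor, (-0.98) followed, with all these adjusted p under the threshold by limma. The MKI67 value takes in the low 4 h controls of MDA-MB-468, at 6.84 on average against 7.76 in its later controls. The higher genes were CDC25B (0.89), TTK, the checkpoint kinase MPS1 (0.81), and CENPA, the centromeric histone H3 (0.80 and 0.91 by its probes).

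Other genes of division were taken as 6 further lists, with 116 genes and 169 probes tested. In MDA-MB-468 10 of their probes (5.92%) were lower against DMSO, with 2.38% of all probes lower, and 3 (1.78%) were higher, which is near the 2.00% of all probes. In MDA-MB-231 0 were lower and 1 (0.592%) was higher, against 0.182% and 0.245% of all probes. The DREAM and MuvB regulators, which time these genes, had 6 of 17 probes lower in MDA-MB-468 and a median of -0.31, with LIN9, a MuvB core subunit, at -0.79 (adjusted p = 0.0073 by limma), E2F5, an E2F of the repressor complex, at -0.77 and RBL2, the pocket protein p130, at -0.67. Condensin and cohesin genes had 3 of 26 lower, including STAG2, a cohesin subunit, at -0.56, and CDCA5, the cohesin protector sororin, at -0.58. The other kinetochore genes had 1 of 45 higher, KNL1, the checkpoint scaffold, at 0.50, the other spindle and cytokinesis genes 1 of 39 lower, TRIP13 at -0.60, and the 17 probes of the anaphase-promoting complex had 0 calls.

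Among the mitotic entry regulators 2 of 25 probes were higher and 0 lower in MDA-MB-468. CDKN1A, the CDK inhibitor p21, was higher with OTX015 in both lines, by 0.94 (SE 0.09, adjusted p = 4.2e-05 by limma) for MDA-MB-231 but by 2.19 (SE 0.11, adjusted p = 0.00147) for MDA-MB-468. The responses differed between the lines by 1.25 (adjusted p = 0.00153). GADD45A, a stress-induced inhibitor of CDK1 in complex with cyclin B1, was called in MDA-MB-468 at 0.88 (adjusted p = 0.0055) and read 0.24 (adjusted p = 0.158) in MDA-MB-231.

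The genes whose pattern was most like that of FOXM1 over the 18 arrays, by Pearson's r of deviations from the mean of each line, were CDC25A (0.95), PCBD1 (0.94), DCTD (0.94), TMEM219 (0.93) and CHPT1 (0.93), none of them a member. The 47 other members had a median r of 0.63, from -0.49 to 0.91, and the most alike among them was SPC25. The median over 17442 named probes was 0.04. These points share arrays and normalization, and the OTX015 arrays of MDA-MB-468 carry the widest deviations, so the values describe likeness on these arrays only.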

How the data were processed

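Per the labels, total RNA was labelled with biotin and hybridized to Illumina HumanHT-12 v4 arrays. The authors deposited GenomeStudio bead intensities (the version of the software is not given) and a second table of log2 values normalized between arrays. How that table was made further is not stated in the labels or the methods, and the probes ranked alike in both tables on every array. The arrays number 1 per condition, which limits the precision.

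Intensities were corrected with the normexp model (offset 50, no control probes), quantile-normalized and log2-transformed with limma 3.58.1 in R 4.3.3. Probe symbols were updated by gene identifier to RefSeq, and probes with several symbols were not used for names. OTX015 was compared with DMSO within each line over 9 arrays with time as an additive term (4 residual degrees of freedom), between lines over 18 arrays, at each time from line-by-time-by-drug means (6 residual degrees of freedom), and the lines without the drug over 12 arrays. The scripts were tested on simulated data.

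The members, roles and further gene lists were chosen with earlier results of these data known. Named genes were the 5 largest rises and falls past the thresholds per line and at 24 h, up to 3 genes per further list, and CDKN1A. The anchors CDK1, CCNB1, PLK1, AURKA, CDC20, MAD2L1, FOXM1, TOP2A and MKI67 were named as well, whether or not they passed. They were all given against DMSO in both lines and at 24 h in MDA-MB-468, and elsewhere only in part. The values of other genes, such as CDCA8, NEK2, RACGAP1, CENPM, MKI67 at 4 h, KIF4A and the promoters shown, were chosen for description after their values were seen. Levels refer to the brightest probe of a gene unless another is named. Fold changes or p-values of the authors were not used. Alternatives varied the background correction, normalization, filter, weights, control group, time term and arrays. The plots were made in matplotlib 3.10.9.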

Additional observations from a re-analysis of the deposited data

Results flagged for a closer look

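A difference between the lines in the response to OTX015 was found by limma's interaction test for 1 member probe. This is 1.37% of the member probes, near the 1.10% of all probes called lower. The dimmer AURKA probe had a response lower by 0.53 in MDA-MB-468 (log2 difference -0.53, adjusted p = 0.0474), with the OTX015 array below both controls at each of the 3 times in both lines.

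Differences between 24 h and 4 h in the response of MDA-MB-468 were found in the same way for 8 member probes. The share lower at 24 h (9.59%) was near the 8.12% of all probes. The share higher (1.37%) was below the 7.58% of all probes. BIRC5 gave -0.97 (adjusted p = 0.000327) and -0.69 (adjusted p = 0.0151) by its probes, CCNB2 gave -0.56 (adjusted p = 0.0149) and the dimmer DLGAP5 probe -0.73 (adjusted p = 0.0257). CENPM gave -1.71 (adjusted p = 4.3e-06) and -1.12 (adjusted p = 0.00216) and MKI67 -0.89 (adjusted p = 0.00112), all of them probes whose 4 h controls were low. The dimmer KIF23 probe gave 0.94 (adjusted p = 0.00210), in the opposite direction.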

How the results depend on the processing

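The count of 8 member probes called in MDA-MB-468 against DMSO was 0 with median scaling, 1 without the time term and 0 from OTX015 and DMSO arrays only, and it ranged from 0 to 10 over the arrays or times left out. Leaving out all 4 h arrays gave 5, the 24 h OTX015 array 4, and the untreated arrays of 4 h and 8 h gave 5 and 4. With untreated cells as the control it was 11, and 7 with the deposited log2 values. The directions of the called members did not change under any alternative run, and the cause of the lost calls was not tested. The 1 call that differed between the lines ranged from 0 to 5 with an array left out. The 8 calls that differed between 24 h and 4 h in MDA-MB-468 were 5 when each line was fitted alone, an alternative chosen after seeing the data, and 7 to 15 with an array left out (15 without the 24 h DMSO array). The 11 calls between 24 h and 4 h without the drug ranged from 9 to 19 with an array left out (19 again without that array) and from 8 to 11 under the other alternatives. Counts in MDA-MB-468 ranged from 18 to 22 at 4 h, 10 to 13 at 8 h and 22 to 24 at 24 h with an array left out, and the baseline count of 27 from 23 to 32. All counts of 0 in MDA-MB-231 and between DMSO and untreated cells stayed 0. For the single times and for 24 h against 4 h, only control arrays were left out. The lone OTX015 array of a time could not be, so these ranges do not show how far a count depends on it. The labels carry no replicate numbers, and arrays of the same time were already matched by the time term in the comparison with DMSO, which left 1 call when that term was dropped. With 1 array per condition, the error estimates against DMSO and between the lines rest on how the groups differ over the times. At single times, and for the change from 4 to 24 h, they rest only on untreated against DMSO arrays of both lines.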
